A study of Rattus norvegicus with 6 samples.

Results

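Of 16770 genes measured in aortic cell cultures of 2 inbred rat strains, 24 were close to absent in one strain and expressed in the other. They were chosen by their level in CPM, that is, the count of a gene per 1000000 counts of its library. A gene was taken when all 3 libraries of one strain lay below 1 CPM and all 3 libraries of the other lay at or above 2 CPM. By this rule 14 genes were close to absent in the Wistar Kyoto rat (WKY), the normotensive control strain, and 10 in the spontaneously hypertensive rat (SHR). These are 0.0835% and 0.0596% of all genes in the table, and 0.143% together. The difference between the strains is what chose the genes, so it is described here with its values and is not tested.

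The cells came from the part of the aorta next to the heart of rats aged 3 months. Tissue pieces were laid with the luminal side down in culture wells, and RNA was taken from the cells that grew, in a medium for endothelial cells with serum and growth supplement. Both strains were handled alike and no treatment is named. The labels give no sex, and do not say whether each library came from its own animal, so the spread between libraries may be technical in part. Replicates 1 and 2 of each strain were labelled batch 1 and replicate 3 of each strain batch 2.

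A transcript can be close to absent in one inbred strain and present in another for several known reasons. Inbred strains are fixed for different alleles, and a deletion, a promoter variant or a different number of gene copies can remove a transcript in one of them. Reads of a gene with a near-identical copy can also be assigned to one or the other copy, depending on how a strain's sequence matches the reference genome. Cultures can also hold different mixtures of cell types, and genes of a minor cell type then come and go together. In bulk RNA fewer cells of a type and less RNA per cell cannot be told apart.

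Libraries held 18462032 to 19947286 counts, so the limit set by a count of 0 (3 counts) lay at 0.15 to 0.162 CPM. It covers counting error only. Of the 14 endothelial markers in the table, 7 were below 1 CPM throughout and others were not. Cdh5, the endothelial cadherin, had at most 0.108 CPM in any library, Tie1 at most 0.0501 CPM and Pecam1 0.108 to 2.11 CPM. Eng, which other stromal cells also express, had 126.5 to 553 CPM, Flt1 6.12 to 84.7 CPM, Egfl7 6.17 to 28.8 CPM and Tek 0.379 to 9.92 CPM, and the list summed to 235 to 575 CPM in WKY and 237 to 317 CPM in SHR. The 16 fibroblast markers summed to 6630 to 14770 CPM in WKY and to 16100 to 24470 CPM in SHR. The 8 mesothelial markers summed to 73.0 to 682 CPM and to 393 to 1185 CPM, highest in SHR replicate 3. The 10 smooth muscle markers summed to 854 to 7581 CPM in WKY and to 978 to 2141 CPM in SHR, and WKY replicate 3 stood apart with 3162 CPM of Acta2 and 300.2 CPM of Myh11. Of the 8 leukocyte markers, Ptprc, Adgre1 and Itgam were at 0 in all 6 libraries, while Cd14 had 15.1 to 38.3 CPM and Cd68 3.03 to 27.0 CPM, and the sum was 28.8 to 59.4 CPM in WKY and 30.5 to 65.1 CPM in SHR. The part of these cell types in the levels of the 24 genes was not tested.

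**Figure D1:**
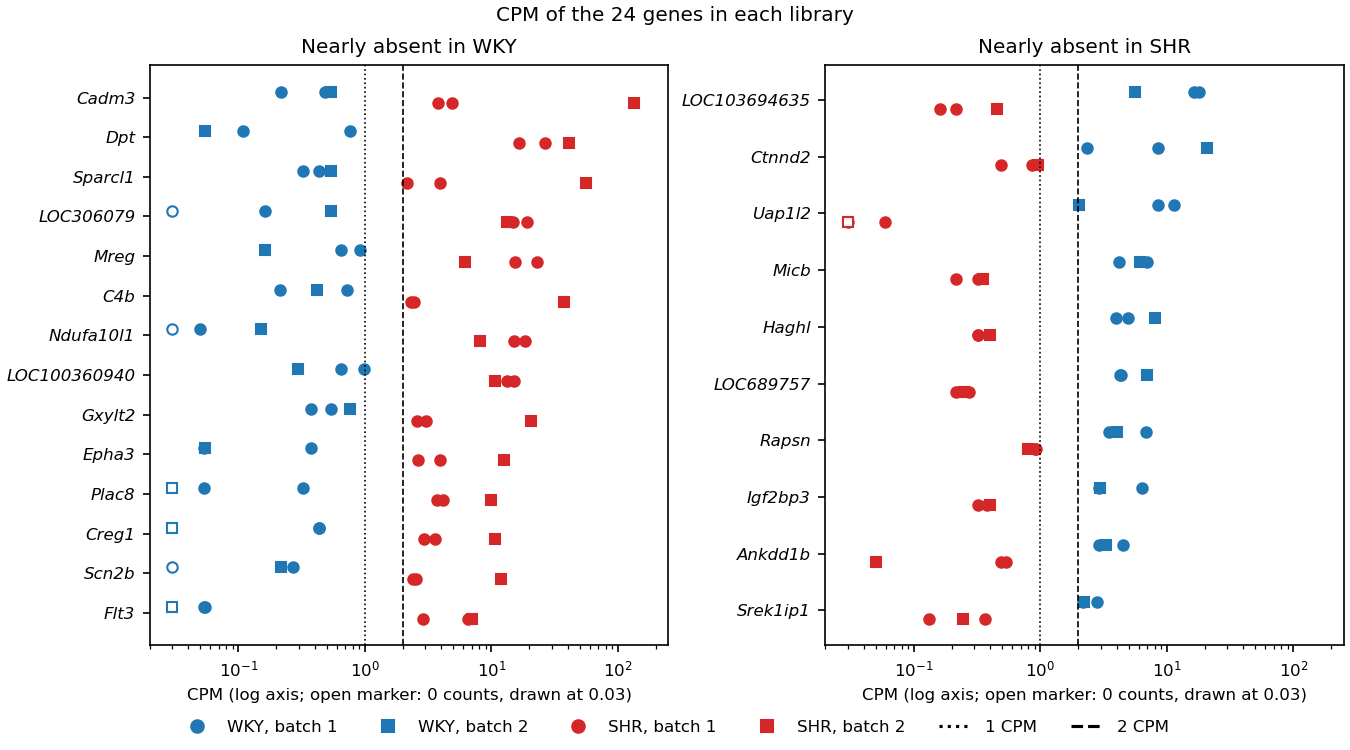
CPM on a log axis of each of the 24 genes in each of the 6 libraries, WKY in blue and SHR in red, with circles for batch 1 and squares for batch 2; open markers are counts of 0. Within the SHR libraries Cadm3, Sparcl1 and C4b stand far higher in batch 2, at 135, 55.7 and 37.2 CPM, while the 2 batch 1 libraries lie between 2.16 and 4.85 CPM.

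The 14 genes expressed in SHR fell into secreted proteins, membrane proteins, enzymes and organelle proteins, and copies of other genes. Dpt encodes dermatopontin, a small protein of the extracellular matrix that binds decorin and collagen fibrils, and was the single gene of the fibroblast list among the 24. It had 0.108, 0.756 and 0.0542 CPM in WKY replicates 1, 2 and 3 and 26.4, 16.4 and 41.1 CPM in the SHR replicates. All 3 SHR libraries stood far above all 3 WKY libraries, the nearest being SHR replicate 2 with 305 counts and WKY replicate 2 with 14. The mean was 91.4 times higher in SHR (27.97 ± 12.4 against 0.306 ± 0.391 CPM, SD, n = 3 each). The edgeR quasi-likelihood test, adjusted over all genes, called 1 of the 16 fibroblast markers higher in SHR, against 0.103% of all genes, and 0 lower. The 1 was Tcf21 (adjusted p = 0.0373), a transcription factor of fibroblasts, and not Dpt. An unadjusted p below 0.05 was reached by 9, all of them higher, against 13.3% of all genes in either direction. The median log2 fold change of the 16 was 1.32, against -0.02 over all genes tested. Dpt is among the 9 and in this median, and the rule had chosen it for its difference between the strains. The part of fibroblast content in the level of Dpt was not tested.

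Sparcl1, a secreted matrix protein related to osteonectin, had 0.323, 0.432 and 0.542 CPM in the WKY replicates and 3.93, 2.16 and 55.7 CPM in SHR. C4b, a gene of complement component 4, had 0.727, 0.213 and 0.417 CPM in WKY against 2.32, 2.44 and 37.2 in SHR. In both genes SHR replicates 1 and 2 stood only a little above the threshold, and SHR replicate 3, the library of batch 2, made most of the mean. C4a, the neighbouring gene of the same component, was not among the 24 because WKY replicate 2 reached 1.01 CPM and SHR replicate 1 only 1.59 CPM, and it too was highest in SHR replicate 3 (29.0 CPM). Reads of C4a and C4b may be split between them by the counting, which was not tested. Their sum was 0.822, 1.22 and 1.28 CPM in WKY against 3.91, 5.17 and 66.2 in SHR. Neither gene overlapped between the strains, so the sum could not overlap either. Creg1, a secreted glycoprotein found in the endolysosomal system, had 0.431, 0.432 and 0 CPM in WKY against 3.60, 2.91 and 10.7 in SHR.

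Among the membrane proteins, Cadm3, an adhesion molecule of the immunoglobulin superfamily best known from neurons, had 0.216, 0.486 and 0.542 CPM in WKY against 3.77, 4.85 and 135 in SHR. Its SHR level of 47.8 ± 75.3 CPM (SD, n = 3) thus rested on replicate 3. Other adhesion molecules of the same family were expressed in both strains, with Cadm1 at 98.4 ± 39.8 CPM in WKY against 61.1 ± 23.3 in SHR and Cadm4 at 98.5 ± 66.2 and 50.9 ± 36.1 CPM. Epha3, a receptor tyrosine kinase for ephrins, had 0.0539, 0.378 and 0.0542 CPM in WKY against 3.93, 2.64 and 12.5 in SHR. Flt3, a receptor tyrosine kinase of early blood progenitors and dendritic cells, had 2 counts over all WKY libraries and 121, 53 and 140 counts in the SHR libraries, or 6.51, 2.86 and 7.02 CPM. The ratio of the pooled counts was 153 (95% exact interval 41.9 to 1267, counting error only). Transcripts of its ligand, Flt3lg, were present in both strains, at 6.47 ± 3.13 CPM in WKY against 9.74 ± 4.89 in SHR. Scn2b, an auxiliary subunit of voltage-gated sodium channels, had 0, 0.27 and 0.217 CPM in WKY against 2.42, 2.53 and 11.9 in SHR. Scn3b and Scn4b, of the same family, stayed below 1 CPM in every library.

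Mreg encodes melanoregulin, a small protein on melanosomes and lysosomes that takes part in the movement of these organelles and was first known from a mouse coat colour mutant. It had 0.916, 0.648 and 0.162 CPM in WKY, from 17, 12 and 3 counts, and 22.8, 15.4 and 6.22 CPM in SHR, from 423, 285 and 124 counts. In both strains the batch 2 library was the lowest, and the ratio of SHR to WKY was large within each batch. The mean was 25.7 times higher in SHR (14.8 ± 8.28 against 0.576 ± 0.382 CPM, SD, n = 3 each). Of 21 tested genes of a list on melanoregulin and organelle transport, which holds Mreg itself, edgeR called 1 higher and 0 lower in SHR, against 0.254% of all genes in either direction, and the 1 was Mreg. At an unadjusted p below 0.05 there were 1 higher and 4 lower, against 13.3% of all genes, with a median log2 fold change of -0.11. Rilp, the Rab7 effector that binds melanoregulin, had 5.64 ± 2.66 CPM in WKY against 10.4 ± 4.31 in SHR, and Dctn1, the dynactin subunit it recruits, 175 ± 68.4 and 185 ± 40.4 CPM. Neither passed the edgeR test over all genes (adjusted p = 0.418 and 0.898).

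Of the remaining named genes of this direction, Gxylt2, a xylosyltransferase that extends O-linked glucose on Notch, had 0.539, 0.378 and 0.758 CPM in WKY against 2.58, 3.02 and 20.5 in SHR. Its paralog Gxylt1 was expressed in both strains, at 26.8 ± 12.9 and 32.5 ± 13.1 CPM. Plac8, a small cysteine-rich protein first described in placenta, had 0.0539, 0.324 and 0 CPM in WKY against 4.14, 3.72 and 9.98 in SHR.

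The other 3 genes close to absent in WKY were copies of a named gene. Ndufa10l1 is a numbered copy of Ndufa10, a subunit of mitochondrial complex I. LOC100360940 is called Diablol1 in current RefSeq, after Diablo, a mitochondrial protein that is released in apoptosis. LOC306079 is called Rpl14l1 there and is annotated as a transcribed pseudogene of Rpl14, a protein of the large ribosomal subunit. Ndufa10l1 had 0.0501, 0 and 0.151 CPM in WKY against 18.4, 15.2 and 8.08 in SHR. Ndufa10 had 94.7, 92.7 and 79.3 CPM in WKY against 67.6, 64.4 and 52.0 in SHR, so the gene was lower in every SHR library where its copy was higher. Added together the pair had 88.9 ± 8.32 CPM in WKY against 75.2 ± 13.5 in SHR (SD, n = 3 each). These sums overlapped between the strains only across the batches. In batch 1 they were 94.7 and 92.7 CPM in WKY against 86.0 and 79.5 in SHR. In batch 2 they were 79.4 against 60.1 CPM. The copy made up 0 to 0.19% of the pair in WKY and 13.4% to 21.4% in SHR.

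LOC100360940 had 0.646, 0.981 and 0.295 CPM in WKY against 13.4, 15.1 and 10.6 in SHR. Diablo had 67.0, 65.7 and 55.7 CPM in WKY against 47.7, 50.2 and 36.7 in SHR, again lower in every SHR library. The sum was 63.4 ± 6.46 CPM in WKY against 57.9 ± 9.41 in SHR, and it too overlapped only across the batches. It was 67.6 and 66.7 CPM in WKY against 61.1 and 65.3 in SHR in batch 1, and 56.0 against 47.3 in batch 2. The copy's share was 0.527% to 1.47% in WKY and 21.9% to 23.1% in SHR. In the pair of Rpl14 the copy was a small part in both strains. LOC306079 had 0, 0.162 and 0.539 CPM in WKY against 19.2, 14.8 and 13.4 in SHR, which is 2.54% to 3.17% of the pair in SHR, while Rpl14 itself had 482 ± 109 and 526 ± 87.0 CPM. Within SHR the highest library was 1.43 times the lowest for LOC306079, 1.424 times for LOC100360940 and 2.27 times for Ndufa10l1, near the 2.46 times of Flt3 and 2.50 times of Dpt, while Cadm3 reached 35.8 times. How reads of near-identical copies were counted is not stated in the labels, and all values of these pairs are uncertain for that reason.

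**Figure D2:**
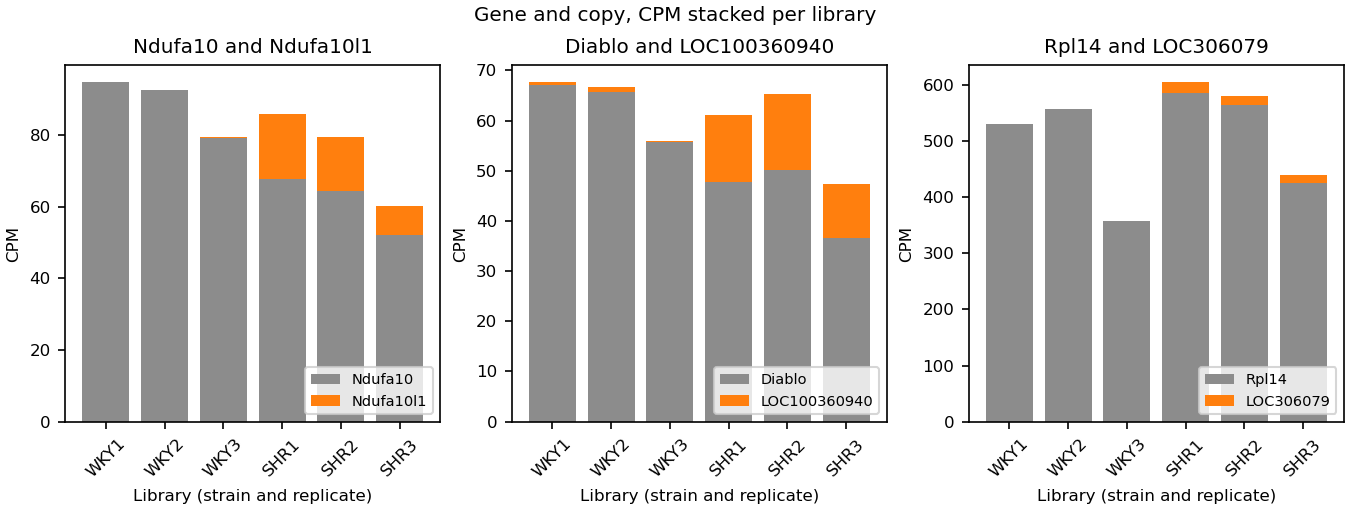
CPM of 3 genes (grey) and their copies (orange), stacked for each of the 6 libraries. The copies show in the SHR bars and hardly in the WKY bars. With the batches pooled, the height of the stacks overlaps between the strains in all 3 pairs. For Diablo it is 56.0 to 67.6 CPM in WKY against 47.3 to 65.3 in SHR. Within each batch no pair overlaps, and the stacks with Ndufa10 and Diablo are lower in SHR and that with Rpl14 higher.

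In the other direction, 10 genes were expressed in WKY and close to absent in SHR. Of these, 2 encode proteins of a class I-like and a C-type lectin-like family. Micb, formerly Mill2, encodes a class I-like molecule and had 4.15, 6.91 and 6.12 CPM in WKY against 0.215, 0.323 and 0.351 in SHR. The libraries of each strain lay close together, with means of 5.73 ± 1.422 and 0.296 ± 0.0717 CPM (SD, n = 3 each), a ratio of 19.3. Its relative Mill1 was at 0 in all 6 libraries. LOC689757, called Clec2d2l1 in current RefSeq, is a C-type lectin-like gene and had 4.32, 4.26 and 6.99 CPM in WKY against 0.272, 0.216 and 0.251 in SHR. Clec2dl1, of the same family, stood the other way, with 11.5, 1.67 and 0.488 CPM in WKY against 76.98, 127 and 49.0 in SHR (edgeR log2 fold change 4.55, SE 0.90, adjusted p = 0.182), as did Clec2d, at 2.02 ± 0.511 and 5.72 ± 2.2 CPM (adjusted p = 0.193). Members of this family resemble each other, and reads may be split between them by the counting.

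A further 2 genes are best known from synapses and junctions. Ctnnd2 encodes delta-catenin, an armadillo protein that binds cadherins and is most familiar from neurons. It had 2.32, 8.53 and 20.6 CPM in WKY against 0.861, 0.485 and 0.953 in SHR, so its lowest WKY and highest SHR library were near each other. Ctnnd1, the p120-catenin gene, was expressed in both strains, at 204 ± 32.0 and 175 ± 29.97 CPM. Rapsn encodes rapsyn, which gathers acetylcholine receptors at the neuromuscular junction. With 6.79, 3.46 and 4.06 CPM in WKY against 0.915, 0.916 and 0.802 in SHR it had the smallest ratio of means of the 24 genes, 5.43, and its SHR libraries held 16 or 17 counts each, above the limit that a count of 0 allows.

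Igf2bp3 encodes an RNA-binding protein of embryonic tissues and tumours that binds the mRNA of Igf2, and had 2.91, 6.37 and 2.98 CPM in WKY against 0.323, 0.377 and 0.401 in SHR. Its paralog Igf2bp2 was expressed in both strains, at 113 ± 26.5 and 137 ± 68.1 CPM, and Igf2bp1 was low in both (0.738 ± 0.452 and 0.835 ± 0.844 CPM). Srek1ip1, named as a partner of a splicing regulator, had 2.80, 2.16 and 2.22 CPM in WKY against 0.131, 0.364 and 0.243 in SHR, the lowest expressed level of the 24 genes. A locus that RefSeq lists as its pseudogene, LOC100362980, held 43.6 ± 7.49 CPM in WKY against 40.3 ± 10.6 in SHR, so that Srek1ip1 was 4.12% to 6.23% of the pair in WKY and 0.412% to 0.971% in SHR.

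Uap1l2 is a numbered relative of Uap1, an enzyme that makes UDP-N-acetylglucosamine. It had 11.4, 8.54 and 2.02 CPM in WKY, and in SHR 1.09 estimated counts in replicate 2 and 0 in the others. The ratio of the pooled counts was 383 (95% exact interval 74.5 to 16525, counting error only). Uap1 had 471, 385 and 64.4 CPM in WKY against 324, 845 and 69.8 in SHR, so the low batch 2 level of Uap1l2 in WKY was matched by a low batch 2 level of Uap1 in both strains. Uap1l2 was 2.17% to 3.04% of the pair in the WKY libraries. Haghl, related to the glyoxalase hydrolase Hagh, had 4.90, 3.995 and 8.02 CPM in WKY against 0.323, 0.323 and 0.401 in SHR, while Hagh had 17.2 ± 5.92 and 19.6 ± 10.2 CPM. Ankdd1b, named for its ankyrin repeats and death domain, had 2.91, 4.54 and 3.30 CPM in WKY against 0.484, 0.539 and 0.0501 in SHR. Ankdd1a, the related gene, had 4.86 ± 3.55 and 1.28 ± 0.593 CPM. LOC103694635, for which the RefSeq table gave no entry, had 17.9, 16.4 and 5.63 CPM in WKY against 0.215, 0.162 and 0.451 in SHR.

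Near-absence was seldom a count of 0. Among the 72 libraries of the strains that lacked a gene, 8 were at 0 and 23 at or under 3 counts, and in 3 genes (Ndufa10l1, Flt3 and Uap1l2) all 3 such libraries were at or under 3 counts. The ratio of the strain means ran from 15.6 to 207 with a median of 43.3 in the 14 genes expressed in SHR, and from 5.43 to 373 with a median of 14.9 in the 10 expressed in WKY. The thresholds divide a continuous range of genes. Just inside lay Uap1l2, by its 2.02 CPM in WKY replicate 3, LOC100360940, by its 0.981 CPM in WKY replicate 2, and Ctnnd2, by its 0.953 CPM in SHR replicate 3. Just outside lay Cyp2d4 and Hykk, both with 1.03 CPM in WKY replicate 2 and at least 2.21 and 3.50 CPM in SHR, and Lzts1, with 1.94 CPM in WKY replicate 2 and at most 0.108 CPM in SHR.

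**Figure D3:**
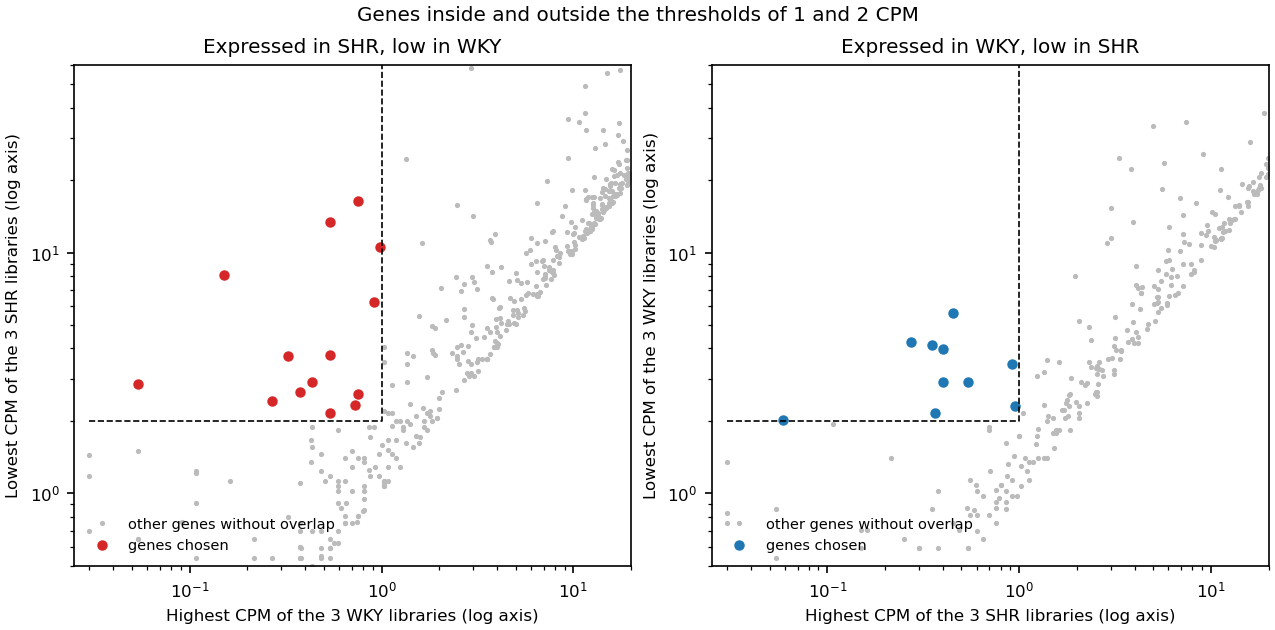
Highest CPM in the strain that lacks a gene (x, log axis) against the lowest CPM in the strain that expresses it (y, log axis), for genes whose libraries do not overlap; coloured points are the 14 and 10 genes chosen, grey points others, and dashed lines the thresholds of 1 and 2 CPM. Uap1l2 and Ctnnd2 sit at the edges in the right panel.

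Of the 24 genes, 4 had a locus name, all beginning with LOC, and none a name beginning with RGD or AABR. A further 3 had names that end like a numbered copy (Ndufa10l1, Uap1l2 and Sparcl1), although Sparcl1 is an established gene that only matches the pattern. Together these made 29.2% of the 24 (95% exact interval 12.6% to 51.1%), or 25.0% without Sparcl1. The share was 12.7% of the 12614 genes that passed the filter on low counts and 16.1% of all 16770 genes. The interval includes both. Established genes such as Rpl14 match the pattern too and were not taken out of these shares over all genes. With current RefSeq symbols 6 of the 24 had copy names, Sparcl1 among them, and 1 a locus name, again 29.2%. This stood against 10.4% of the 12614 genes and 13.4% of all 16770. Since the pattern also catches established genes, nothing is read from these shares. By direction the file's symbols gave 4 of 14 genes expressed in SHR and 3 of 10 expressed in WKY.

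All 24 genes passed the filter on low counts. With batch and strain as terms, edgeR called 6 of them after Benjamini-Hochberg adjustment, against 0.254% of all genes tested. These were Mreg and LOC100360940, higher in SHR (0.103% of all genes were), and Uap1l2, Micb, Haghl and LOC689757, lower (0.151%). DESeq2 called all 24, against 5.51% of all genes, with 2.85% higher and 2.66% lower. With the replicate number as a block edgeR called 1, Mreg, against 0.0476%, with 0.0159% higher and 0.0317% lower. Since the same difference chose the genes, nothing is read from these counts. The authors' deposited log2 values gave smaller differences than the CPM, as for Mreg with 4.84 in WKY and 7.11 in SHR and for Rapsn with 5.91 and 4.89.

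The batches are described in the same way, without a test, because the rule set limits on the level in every library of both batches. By edgeR 3 of the 24 were higher and 2 lower in batch 2, against 21% and 22.5% of all genes, or 43.5% in both directions together, and nothing is read from this. The 3 higher genes were Cadm3 (log2 fold change 4.03, SE 0.91), Sparcl1 (3.21, SE 0.82) and Gxylt2 (2.22, SE 0.49), all of them expressed in SHR. Those lower were Mreg (-1.64, SE 0.33) and Uap1l2 (-2.05, SE 0.61). DESeq2 called these 5 and, higher, C4b and Scn2b, against 51% of all genes, with 25.9% higher and 25.1% lower. In the strain that expresses a gene, batch 2 is a single library, so each of these values rests on it. In 10 of the 14 genes expressed in SHR the batch 2 library was the highest, and the exceptions were Mreg and the copies LOC306079, LOC100360940 and Ndufa10l1. Of the 10 genes expressed in WKY, 3 were highest in the batch 2 library, namely Ctnnd2, Haghl and LOC689757.

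SHR replicate 3 also held the highest level of all 8 mesothelial markers, with 99.8 CPM of Lrrn4 and 160 CPM of Upk3b. The next highest library, SHR replicate 2, had 6.04 and 24.7 CPM. The part of such cells in the levels of Cadm3, Sparcl1, C4b and Gxylt2 was not tested. Without SHR replicate 3 the batch difference on the log2 scale was 0.87 for Cadm3, 0.77 for Sparcl1 and 0.98 for Gxylt2. For Mreg it lay between -1.96 and -1.48 and for Uap1l2 between -2.32 and -1.89 whichever library was left out. Without the batch 2 library of the expressing strain such values rest on few counts, with 3 for Mreg in WKY replicate 3 and 0 for Uap1l2 in SHR replicate 3. The edgeR adjusted p of Uap1l2 was 0.111, 0.0852 and 0.0609 without WKY replicate 1, WKY replicate 2 or SHR replicate 2, and 0.0414 without SHR replicate 1. That of Mreg was 0.0562 without SHR replicate 1 and at most 0.0241 without any other batch 1 library. In 12 of the 24 genes the sign of the batch difference changed under some alternative, most often without SHR replicate 3.

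**Figure D4:**
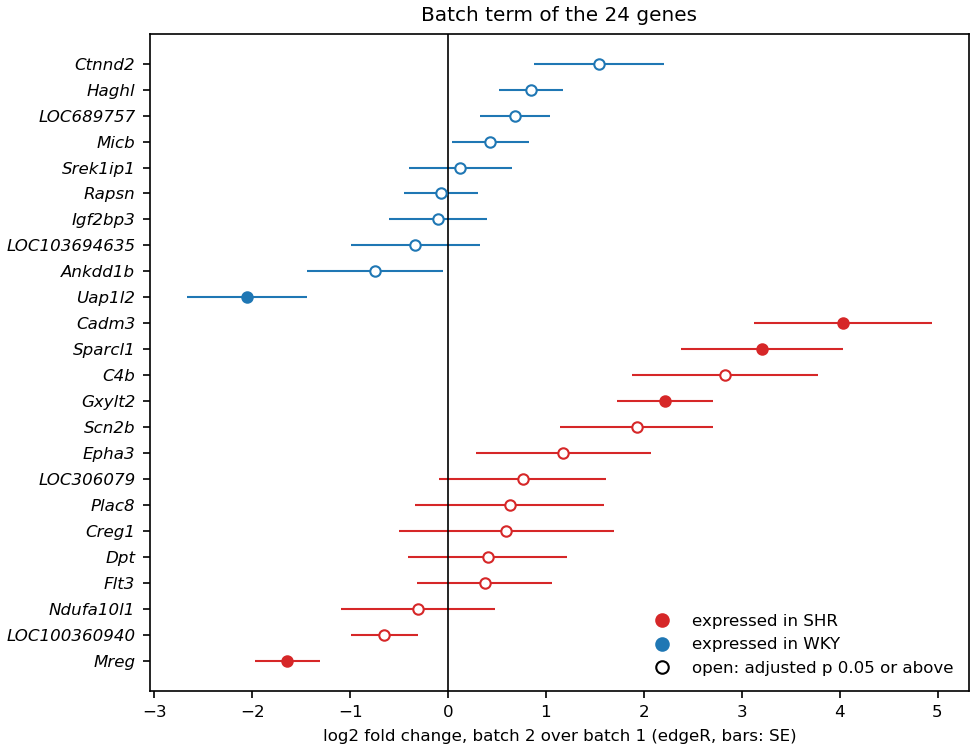
Log2 fold change of batch 2 over batch 1 for each of the 24 genes from the edgeR fit with strain as a term (points, with SE as bars), filled where the adjusted p was below 0.05. Values run from -2.05 for Uap1l2 to 4.03 for Cadm3, and most genes expressed in SHR lie to the right of 0.

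Some of the genes shared a chromosome of assembly GRCr8. Dpt and Creg1, both expressed in SHR, had promoter windows that began at 79656091 and 80552571 of chromosome 13. Those of Sparcl1 and Plac8, also expressed in SHR, began at 5937234 and 9356700 of chromosome 14. Chromosome 4 held genes of both directions, Gxylt2 against Igf2bp3 and LOC689757. Whether such positions differ from those of other genes was not tested. In the order of the RefSeq annotation of assembly GRCr8, 23 of the 24 had a place, and none had another of the 24 among the 5 tested genes on either side. Of 226 such neighbouring places, 0 held a gene that edgeR called between the strains, 37 (16.4%) one with an unadjusted p below 0.05, against 13.3% of all genes tested, and 13 (5.75%) one that DESeq2 called, against the 5.51% above. In 106 places (46.9%) the neighbour differed between the strains in the same direction as the gene. Mreg, for example, stood between Fn1 and Pecr, and its 10 neighbours had a median log2 fold change of -0.13. LOC689757 stood next to Clec2d, and the largest log2 difference among its neighbours was the 4.55 of Clec2dl1.

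The sequences before the transcript start are shown as examples for 4 genes, 2 expressed in each strain. They are 250 bases each from the RefSeq annotation of GRCr8, which is the genome of another strain, Brown Norway, and do not show the alleles of WKY or SHR. Capitals mark CG dinucleotides and the TATA box letters TATAAA, searched on the printed strand, and the 2 motifs share no letters. CG reads the same on both strands and occurs in 92.5% of the 27457 first-listed promoters of this length, and TATAAA in 8.38%.
Mreg, expressed in SHR, chr9:81291311-81291560, minus strand: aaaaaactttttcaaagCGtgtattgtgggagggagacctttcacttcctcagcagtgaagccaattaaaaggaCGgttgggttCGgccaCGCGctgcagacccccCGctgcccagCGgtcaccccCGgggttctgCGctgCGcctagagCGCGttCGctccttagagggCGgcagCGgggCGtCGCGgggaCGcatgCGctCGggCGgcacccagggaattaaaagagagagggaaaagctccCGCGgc
Dpt, expressed in SHR, chr13:79656091-79656340, plus strand: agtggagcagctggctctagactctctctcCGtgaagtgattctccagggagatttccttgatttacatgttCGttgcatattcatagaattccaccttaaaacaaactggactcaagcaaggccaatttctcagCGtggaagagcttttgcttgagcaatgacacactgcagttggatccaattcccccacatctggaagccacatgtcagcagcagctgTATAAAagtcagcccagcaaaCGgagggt
Igf2bp3, expressed in WKY, chr4:79525731-79525980, minus strand: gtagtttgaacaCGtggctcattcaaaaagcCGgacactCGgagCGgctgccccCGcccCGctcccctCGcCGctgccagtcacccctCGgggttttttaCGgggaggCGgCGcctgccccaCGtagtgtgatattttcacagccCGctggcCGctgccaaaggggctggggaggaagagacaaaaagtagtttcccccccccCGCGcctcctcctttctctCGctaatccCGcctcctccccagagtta
LOC689757, expressed in WKY, chr4:163793207-163793456, minus strand: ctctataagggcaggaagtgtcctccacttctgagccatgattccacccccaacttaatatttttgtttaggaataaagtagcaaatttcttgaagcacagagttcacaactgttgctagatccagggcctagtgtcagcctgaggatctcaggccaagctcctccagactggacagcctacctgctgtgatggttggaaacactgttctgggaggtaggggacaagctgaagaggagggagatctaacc
The Mreg window holds 24 CG dinucleotides and that of Igf2bp3 19, while Dpt has 4 and a TATAAA, and LOC689757 has 0. Over the 9965 tested genes with a promoter the number ran from 0 to 56, so such a range is not particular to these genes. A promoter was found by gene identifier for 19 of the 24 genes (79.2%), below the 80% needed for a comparison over the set, and so that comparison is void and none is given. LOC306079, Ndufa10l1, LOC103694635, Micb and Rapsn had no entry.

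None of the genes with strain variants described in SHR rats, of which 6 of 7 were in the table, was among the 24. Cd36, a fatty acid transporter gene, had 60.2 to 364 CPM in WKY against 49.5 to 286 in SHR, and Endog, a mitochondrial nuclease, 3.02 to 5.36 and 1.46 to 1.85 CPM, without overlap but with neither strain below 1 CPM. By edgeR 0 of the 5 tested genes of this list were called, against 0.254% of all genes, and 2 were higher and 1 lower by an unadjusted p below 0.05, against 13.3%. Of 7 sex-linked genes listed, 4 were in the table, all of them Y-linked. Uty, Kdm5d and Eif2s3y were at 0 in all 6 libraries. Ddx3y had 0, 0.054 and 0 CPM in WKY against 0.646, 0.647 and 0.1 in SHR, all below 1 CPM. The sex of the animals was not tested.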

How the data were processed

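RNA-seq was made from 3 WKY and 3 SHR cultures. The authors deposited estimated counts per gene, and a table of log2 values per gene whose batch means are equal to within 7.5e-09. Bowtie2 2.4.4, RSEM 1.2.28 and DESeq2 1.42.1 and the build Rnor_6.0 are named per the submitters' processing notes, without their roles. Estimated counts were not whole in 8.72% to 9.51% of genes and were rounded for the tests. CPM used unrounded counts and column totals, which give the depth. The main test was edgeR 4.0.16 (quasi-likelihood, filterByExpr, TMM, terms batch and strain, Benjamini-Hochberg adjustment over 12614 genes, called below 0.05) in R 4.3.3, and DESeq2 1.42.0 an alternative. On simulated data of 12374 genes edgeR recovered 85.7% of 4-fold and 94.9% of 8-fold changes, and it called 14 unchanged genes. The simulated counts followed the fitted model itself. They show that the fit runs as intended, and not its power on the real libraries. Same-numbered libraries deviated together, with r = 0.30 and 0.40 for the pairs of batch 1 and 0.66 for that of batch 2. This does not show that the numbers are pairs, and the fit with the number as a block is given as an alternative where it differs. Both differently numbered pairs of batch 1 correlated more than its same-numbered pairs (WKY 1 with SHR 2, r = 0.49, and WKY 2 with SHR 1, r = 0.48), so within batch 1 the numbers do not stand out. RefSeq identifiers matched 94.1% of genes. The 24 genes and the lists were chosen with earlier results of these data known. All members with an assigned name, the locus-named members, their partner genes, the genes nearest the thresholds and genes of the lists were named. No library was left out of the main results, and alternatives covered scaling, filter, thresholds, batch term, block and each library left out.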

Additional observations from a re-analysis of the deposited data

How the results depend on the processing

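With TMM-scaled library sizes the same 14 and 10 genes were found. The number close to absent in WKY was 6 with an upper limit of 0.5 CPM, 5 with a lower limit of 5 CPM, 51 with both limits at 1 CPM and 28 in batch 1 alone. The number close to absent in SHR was 1 with a lower limit of 5 CPM, 29 with both limits at 1 CPM and 33 in batch 1 alone. Leaving out 1 library gave 16 to 39 genes for WKY (39 without WKY replicate 2, 31 without SHR replicate 1, 26 without WKY replicate 3, 25 without SHR replicate 2) and 11 to 20 for SHR (20 without WKY replicate 2, 19 without WKY replicate 3, 17 without SHR replicate 3, 16 without SHR replicate 2), since fewer libraries have to meet the limits. Genes called between the strains by edgeR, 32, became 6 with the replicate block, 2 without the batch term and 695 by DESeq2, and 0 to 65 with 1 library left out (4 without WKY replicate 1, 65 without WKY replicate 2, 20 without WKY replicate 3, 0 without SHR replicate 1 or 2, where 1134 and 1513 had an unadjusted p below 0.05). Of the 24 genes, 6 called became 1 with the replicate block (Mreg), 0 without the batch term, 24 by DESeq2, and 0 to 8 with 1 library left out (0 without WKY replicate 1, SHR replicate 1 or SHR replicate 2). In each of these fits all 24 had an unadjusted p below 0.05, and nothing is read from this, since the same difference chose the genes. Over all genes the number with such a p ran from 583 of 12614 without the batch term to 2044 of 12614 by DESeq2. The batch calls, 5, became 1 to 6 with 1 library left out (1 without SHR replicate 1, 1 without SHR replicate 2, 2 without SHR replicate 3). No strain fold change of the 24 genes changed sign. The rule had set this, since every library of one strain lay below 1 CPM and every library of the other at or above 2 CPM. The batch log2 fold change changed sign in 12 genes, in 18 values, 7 of them without SHR replicate 3. With 1 library left out it ran from -2.62 to 1.03 for Dpt, -0.24 to 2.90 for LOC306079, -0.96 to 2.57 for Ndufa10l1 (0.12 by DESeq2), -1.64 to 2.03 for Epha3, -4.82 to 1.44 for Plac8, -5.97 to 1.81 for Creg1, -3.12 to 0.79 for Flt3, -1.35 to 1.33 for LOC103694635, -0.27 to 0.16 for Rapsn, -0.39 to 0.30 for Igf2bp3, -3.10 to 0.083 for Ankdd1b and -0.074 to 0.44 for Srek1ip1. The share of locus and copy names was 29.2% with both sets of symbols and 25.0% without Sparcl1, an alternative chosen after seeing the data. A block could not be fitted for the batch comparison, since the replicate number fixes the batch. The planned comparison of protein sequences was not run. Except where a count of libraries or limits sets it, the cause was not tested. Levels under 0.162 CPM are within the limit that a count of 0 allows.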
